A study of Mus musculus with 9 samples.

Results

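Small nucleolar RNA (snoRNA) host genes are transcribed by RNA polymerase II, and snoRNAs are cut out of their introns. C/D box snoRNAs guide 2'-O-methylation of ribosomal RNA, and H/ACA box snoRNAs guide its pseudouridylation. The spliced host RNAs described here code for no known functional protein, and several of them, Gas5 first, are known to start with a tract of pyrimidines as ribosomal protein mRNAs do and to be removed by nonsense-mediated decay when they are translated. The level of such a host RNA therefore reports on its transcription and on its decay together.

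The genes described are 8 host genes chosen by symbol: Gas5, Snhg1, Snhg3, Snhg5, Snhg6, Snhg8, Snhg12 and Snhg15. All 8 have a row among the 24756 rows of the deposited count table, and all 8 passed the filter on low counts, which kept 10215 genes. They were measured in a mouse acute myeloid leukaemia line made from foetal liver cells that carry a constitutively expressed MLL-AF9 vector with luciferase and a doxycycline-inducible FLT3-ITD vector with DsRED, both retroviral. All 9 libraries come from this 1 line. FLT3-ITD is a mutant growth factor receptor that is active without ligand. In the ON group (3 libraries) the cells stayed in 1 µg/mL doxycycline, which keeps the transgene expressed. In the OFF24 and OFF48 groups (3 libraries each) doxycycline had been washed out 24 or 48 hours before. Every group carries MLL-AF9. The level of the transgene itself was not analysed here, and nothing in the labels says whether replicates were separate cultures, so the p-values measure the spread between these libraries, which may be technical.

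Total counts ran from 1329296 (OFF48 replicate 2) to 4038456 (ON replicate 2). Levels are CPM (counts per 1e+06 counts of the library) scaled by TMM, a factor that corrects for differences in library composition. A count of 0 allows up to 3 counts, or 0.737 to 2.25 CPM, covering counting error only. The 12 myeloid markers examined were all detected, and their summed level ran from 2141 to 2249 CPM in ON, from 4555 to 4850 CPM in OFF24, then from 7207 to 8426 CPM in OFF48. Of the 9 erythroid markers, 4 (Hbb-bs, Hbb-bt, Epor and Alas2) were at 0 counts in every library and the sum never exceeded 1.57 CPM. The 9 lymphoid markers summed to at most 6.41 CPM, with Ncr1 among those at 0 throughout, and the 8 hepatocyte and stromal markers to at most 6.998 CPM, with Alb, Ttr and Cdh5 at 0. The 8 megakaryocyte and mast cell markers summed to between 9.75 and 29.5 CPM, with Cpa3 and Fcer1a among those at 0. The rise of the myeloid markers ran alongside the host gene changes below, and its part in them was not tested. In bulk RNA, fewer cells of a type and less RNA per cell cannot be told apart.

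The 8 genes lie at 8 places of the mouse genome (build GRCm38, GENCODE M21 annotation). Gas5 spans chr1:161034422-161038539 on the plus strand with 9 snoRNA loci, and Snhg1 spans chr19:8723475-8726443 on the plus strand with 8. Snhg3 (chr4:132348014-132353686, minus strand) and Snhg5 (chr9:88521050-88522929, minus strand) hold 2 snoRNA loci each, and Snhg12 (chr4:132308623-132311024, plus strand) holds 4. Snhg6 (chr1:9941959-9944118), Snhg8 (chr3:123507552-123508404) and Snhg15 (chr11:6525591-6528760), all on the minus strand, hold 1 each. The genes thus contain 28 annotated snoRNA loci in all.

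The first bases of a host RNA decide whether it counts as a terminal oligopyrimidine (TOP) transcript, a class whose translation is held back by LARP1 when mTORC1 is inactive. The windows below are therefore shown for all members with an entry in RefSeq's GRCm38.p6 promoter table. Each runs 5′ to 3′ on the gene's strand from 10 bases before the annotated start, and capitals mark the unbroken run of pyrimidines that begins at the start.
Gas5, upstream start: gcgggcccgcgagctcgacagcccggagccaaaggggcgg
Gas5, downstream start: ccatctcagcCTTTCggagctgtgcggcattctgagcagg
Snhg1: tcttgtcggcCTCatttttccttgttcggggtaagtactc
Snhg3: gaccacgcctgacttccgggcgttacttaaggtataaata
Snhg5: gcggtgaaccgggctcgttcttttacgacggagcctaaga
Snhg8: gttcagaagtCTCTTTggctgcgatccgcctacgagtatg
Snhg12: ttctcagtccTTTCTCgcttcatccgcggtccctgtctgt
Snhg15: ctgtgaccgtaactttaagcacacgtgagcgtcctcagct
Of these 8 starts, from 7 members, 2 began with C followed by at least 4 more pyrimidines: the downstream start of Gas5 (CTTTC) and that of Snhg8 (CTCTTT). Among all 32851 promoters of the table, 2.51% began so. Snhg12 began with a run of 6 pyrimidines whose first base is T, and Snhg1 with 3. The upstream start of Gas5 and the starts of Snhg3, Snhg5 and Snhg15 as annotated began with a purine. Annotated starts can be off by some bases from the starts used in these cells, which a 3′ assay does not show. Snhg6 is named only.

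Between ON and OFF24 2 host genes fell, 2 rose and 4 were not called, and between ON and OFF48 they fell or did not pass the test. At 24 h, Snhg15 and Snhg1 fell, Snhg6 and Snhg8 rose, and Gas5, Snhg3, Snhg5 and Snhg12 were not called (edgeR quasi-likelihood test, Benjamini-Hochberg adjusted p under 0.05 over all tested genes). That is 4 of 8 called, where 35.3% of all tested genes were called (17.4% fell and 17.8% rose). Both rises were lost under DESeq2. At 48 h, 6 of 8 fell against ON and none rose, where 23.9% of all tested genes fell and 23.4% rose. Between OFF24 and OFF48 all 8 fell, where 11.2% of all tested genes fell and 9.99% rose. The comparisons with ON share their control libraries. The median log2 change of the 8 genes was -0.10 at 24 h and -0.91 at 48 h against ON, and -0.72 from 24 to 48 h, beside 0.03, 0.01 and 0.00497 over all tested genes. Their summed level was 1253 ± 84.4 CPM (SD, n = 3) in ON, 1222 ± 71.0 CPM (SD, n = 3) in OFF24, then 713 ± 66.2 CPM (SD, n = 3) in OFF48.

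**Figure D1:**
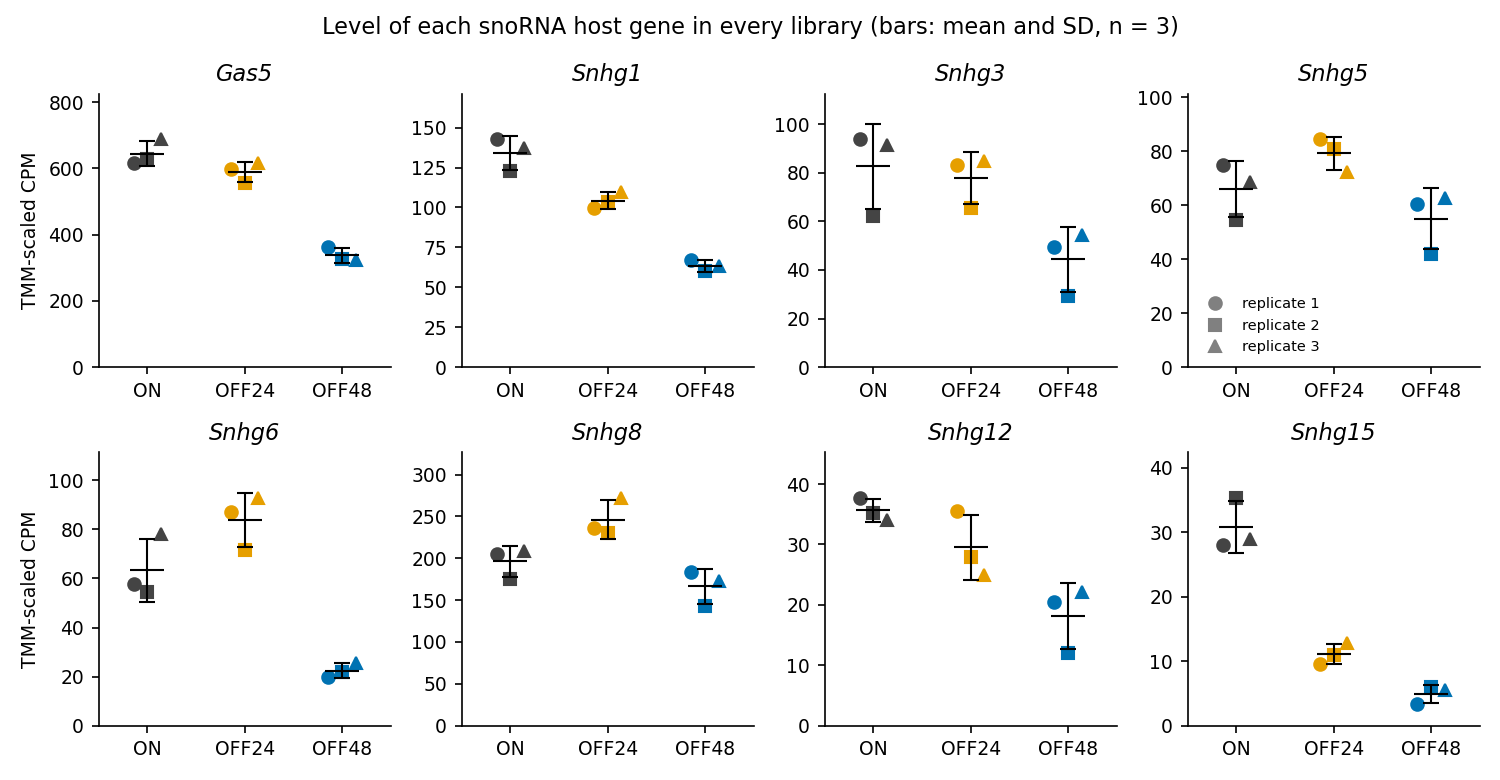
TMM-scaled CPM of each host gene (y axis, linear from 0) in the ON, OFF24 and OFF48 groups (x axis); each marker is 1 library and the bars are the mean and SD of 3. In all 8 panels the 3 OFF48 libraries lie below the 3 OFF24 libraries, while OFF24 lies above ON for Snhg8 and below it for Gas5, Snhg1 and Snhg15, and overlaps ON for the other genes. How often groups of 3 libraries separate in this way over all tested genes was not counted.

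Gas5, whose RNA is known to accumulate in growth-arrested cells and to bind the glucocorticoid receptor, kept most of its level at 24 h. Its level was 617, 628 and 688 CPM in ON replicates 1 to 3, 599, 555 and 615 CPM in OFF24, then 364, 325 and 325 CPM in OFF48. The OFF24 libraries sat just under the ON libraries without overlap, and the OFF48 libraries lay far below both. The log2 change was -0.13 ± 0.10 (SE) at 24 h, which did not pass the test (edgeR adjusted p = 0.313), and -0.93 ± 0.10 at 48 h (edgeR adjusted p = 2.38e-07). From 24 to 48 h it fell by 0.80 ± 0.10 on the log2 scale (edgeR adjusted p = 7.05e-06), so OFF48 was lowest, and ON and OFF24 did not differ beyond their spread by this test.

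Snhg1, a host of C/D box snoRNAs next to the amino acid transporter gene Slc3a2, fell stepwise. Its level was 143, 123 and 137 CPM in ON, 99.9, 103 and 110 CPM in OFF24, then 67.1, 59.99 and 63.3 CPM in OFF48. The 3 groups did not overlap. The change was -0.36 ± 0.10 at 24 h (edgeR adjusted p = 0.0113) and -1.07 ± 0.11 at 48 h (edgeR adjusted p = 2.08e-07), with a further fall of 0.71 ± 0.11 between the times (edgeR adjusted p = 0.000148). The call at 24 h was lost without ON replicate 1 (-0.33, adjusted p = 0.0512).

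Snhg15 showed the lowest remaining level relative to ON of the 8. Snhg15 carries 1 snoRNA gene, the H/ACA box Snora9, and its RNA is known to be short-lived. It was measured at 28.1, 35.4 and 29.0 CPM in ON, 9.62, 10.99 and 12.8 CPM in OFF24, then 3.35, 5.999 and 5.54 CPM in OFF48. The last of these rest on 10, 8 and 19 counts. The last 400 bases of Snhg15 also match Gm23626, an annotated snoRNA, on the same strand, so such reads could be counted for either. No group overlapped another. The mean of OFF24 was 36.2% of ON and that of OFF48 16.1%. On the log2 scale these were changes of -1.45 ± 0.19 (edgeR adjusted p = 9e-06) and -2.68 ± 0.23 (edgeR adjusted p = 2.1e-08), and the step from 24 to 48 h was -1.23 ± 0.27 (edgeR adjusted p = 0.00315).

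Snhg6, the host of the C/D box snoRNA Snord87, moved up and then down. Its level was 57.6, 54.3 and 78.0 CPM in ON, 87.0, 71.6 and 92.9 CPM in OFF24, then 19.8, 21.7 and 25.7 CPM in OFF48. ON replicate 3 was above OFF24 replicate 2, so those groups overlapped, while every OFF48 library was below every other. The rise of 0.42 ± 0.14 at 24 h (edgeR adjusted p = 0.0297) was lost without ON replicate 1 (adjusted p = 0.137), ON replicate 2 (0.137), OFF24 replicate 1 (0.101) or OFF24 replicate 3 (0.175), and under DESeq2 (0.0773). The fall at 48 h was -1.47 ± 0.17 against ON (edgeR adjusted p = 9.79e-07) and -1.89 ± 0.17 against OFF24 (edgeR adjusted p = 1.31e-07), the widest step between the times among the 8 genes.

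Snhg8, the host of the H/ACA box snoRNA Snora24, has a start with a TOP-like run as shown above. Its level was 205, 175 and 209 CPM in ON, 236, 230 and 273 CPM in OFF24, then 184, 143 and 173 CPM in OFF48. OFF24 lay above both other groups without overlap, and OFF48 overlapped ON. The change at 24 h was 0.33 ± 0.11 (edgeR adjusted p = 0.0303). That call was lost under DESeq2 (adjusted p = 0.0533) and without any 1 of ON replicate 1 (0.0639), ON replicate 2 (0.147) or OFF24 replicates 1 (0.0604), 2 (0.0518) and 3 (0.204). The value of -0.22 ± 0.12 at 48 h did not pass the test (edgeR adjusted p = 0.118) with all libraries but did without ON replicate 2 (-0.30, adjusted p = 0.0423) and with the replicate number as a block (-0.23, adjusted p = 0.0411). From 24 to 48 h Snhg8 fell by 0.55 ± 0.12 on the log2 scale (edgeR adjusted p = 0.0019).

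Snhg5, the host of the nearly identical C/D box snoRNAs Snord50a and Snord50b, had the values least separated between groups. Its level was 74.7, 54.5 and 68.7 CPM in ON, 84.4, 80.7 and 72.4 CPM in OFF24, then 60.4, 42.0 and 62.7 CPM in OFF48. ON overlapped both other groups, and OFF24 and OFF48 did not overlap. Against ON the value was 0.26 ± 0.14 at 24 h (edgeR adjusted p = 0.158) and -0.22 ± 0.15 at 48 h (edgeR adjusted p = 0.243), neither called. The fall of 0.48 ± 0.15 between the times (edgeR adjusted p = 0.0261) was lost without OFF24 replicate 1 (adjusted p = 0.105), OFF24 replicate 2 (0.0908), OFF48 replicate 1 (0.0501) or OFF48 replicate 2 (0.0985). The last 400 bases of Snhg5 match transcripts of 9330159M07Rik and 9430037G07Rik on the same strand at 95% identity or more over at least 100 bases, so its counts are uncertain to the extent that the counting shared or dropped such reads.

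Snhg3, a host of the H/ACA box snoRNAs Snora73a and Snora73b, was measured at 93.9, 62.4 and 91.6 CPM in ON, 83.2, 65.6 and 84.9 CPM in OFF24, then 49.7, 29.2 and 54.5 CPM in OFF48. Replicate 2 was the lowest of its group in all 3 groups. OFF24 overlapped ON, and OFF48 lay below both. The value at 24 h was -0.08 ± 0.18 (edgeR adjusted p = 0.761), and Snhg3 fell by 0.82 ± 0.20 on the log2 scale at 48 h (edgeR adjusted p = 0.0029). The fall of 0.74 ± 0.20 between the times (edgeR adjusted p = 0.0150) was lost without OFF24 replicate 1 (adjusted p = 0.0560) or OFF24 replicate 3 (0.0737).

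Snhg12, which lies near Snhg3 on chromosome 4 and carries both H/ACA and C/D box snoRNAs, had 37.7, 35.1 and 34.0 CPM in ON, 35.5, 27.9 and 25.02 CPM in OFF24, then 20.5, 11.998 and 22.2 CPM in OFF48. One OFF24 library reached into the ON range and the OFF48 libraries lay below all others. The value at 24 h was -0.29 ± 0.17 (edgeR adjusted p = 0.188), and Snhg12 fell by 0.88 ± 0.18 on the log2 scale at 48 h (edgeR adjusted p = 0.000557). The fall of 0.59 ± 0.19 between the times (edgeR adjusted p = 0.0333) was lost without OFF24 replicate 1 (adjusted p = 0.161), OFF24 replicate 2 (0.0695), OFF48 replicate 1 (0.0688) or OFF48 replicate 2 (0.103), and under DESeq2 (0.0548).

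**Figure D2:**
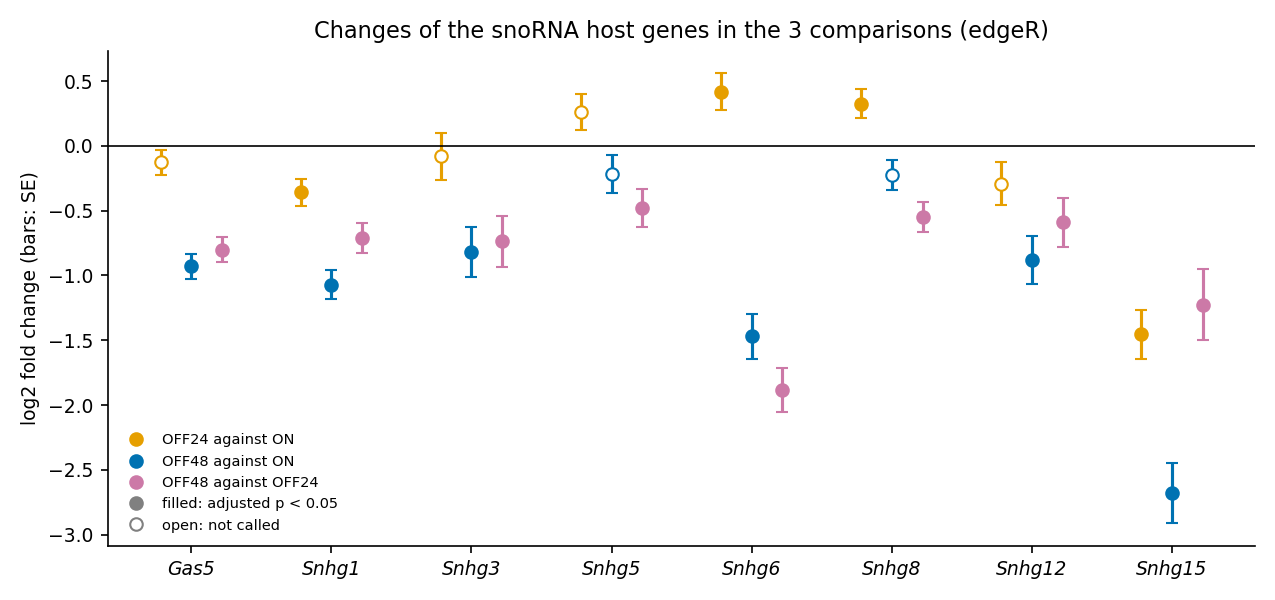
Log2 fold change with its SE (y axis) of each host gene (x axis) in the 3 comparisons, from edgeR's fit to all 9 libraries; filled points passed an adjusted p of 0.05 and open points did not. The values against OFF24 are all below 0 and filled, from -0.48 for Snhg5 to -1.89 for Snhg6, and Snhg15 is the lowest in both comparisons with ON.

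The members' changes also differed from each other within a library, where no scaling between libraries enters. The count of Snhg6 per count of Snhg8 was 0.321 ± 0.0470 (SD, n = 3) in ON, 0.340 ± 0.0291 in OFF24, then 0.136 ± 0.0243 in OFF48. The OFF48 ratios lay below all others (exact two-sided permutation test, p = 0.1 against either group, the smallest that 3 against 3 libraries can give). Snhg15 per Gas5 was 0.0480 ± 0.00744 in ON, 0.0189 ± 0.00251 in OFF24, then 0.0149 ± 0.00497 in OFF48, and both OFF groups lay below ON without overlap (exact permutation p = 0.1 each). Snhg6 per Gas5 was 0.0978 ± 0.0139 in ON, 0.142 ± 0.0115 in OFF24, then 0.0668 ± 0.0123 in OFF48, with no overlap between any groups (exact permutation p = 0.1 each). These 3 ratios were chosen with the values known, and the groups they compare cannot reach a p under 0.05.

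As shares of the 8 genes' summed counts, Gas5 held 51.5% ± 2.35 (SD, n = 3) in ON and 47.5% ± 3.27 in OFF48, and Snhg8 went from 15.7% ± 0.653 to 23.3% ± 0.819. The share of Snhg15 was 2.48% ± 0.480 in ON and 0.711% ± 0.254 in OFF48. The Snhg6 share was 5.03% ± 0.706 in ON, 6.84% ± 0.521 in OFF24 and 3.16% ± 0.508 in OFF48. A 3′ library gives about 1 tag per transcript whatever its length, so these counts were not divided by length, and shares of different genes are not compared with each other here.

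Across the 9 libraries the pairs of members ranged widely in how alike they were, as Pearson correlations of log2 TMM-scaled CPM. The closest pair was Gas5 and Snhg1 (r = 0.964, 9 libraries) and the least alike was Snhg5 and Snhg15 (r = 0.225). These libraries share 3 groups, so r mostly reflects the group means. Among 5791 named genes with a mean of at least 20 CPM, those most like Gas5 were Pebp1 (r = 0.993), a RAF kinase inhibitor protein, and Dlk1 (r = 0.992), a non-canonical Notch ligand. Selenoh and Bri3bp (both r = 0.990) were closest to Snhg1, Impdh2-ps (0.986) and Srp68 (0.984) to Snhg3, Acot8 (0.974) and Stx16 (0.964) to Snhg5, and Rpl41 (0.981) and Sh3glb1 (0.980) to Snhg6. Zfp120 and Zfp219 (both r = 0.967) were closest to Snhg8, Seh1l (0.976) and Txndc12 (0.956) to Snhg12, and Ripor2 (0.987) and Ybx3 (0.986) to Snhg15. Ybx3, a cold shock domain protein gene, is itself annotated as a snoRNA host, and its means were 347 CPM in ON, 120 CPM in OFF24, then 57.0 CPM in OFF48.

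Several members share a promoter region or an end with a protein-coding gene. Slc3a2, which encodes the heavy chain of amino acid transporters, starts 106 bases from Snhg1 on the other strand (chr19:8706882-8723369). Slc3a2 measured 179.7 ± 20.2 CPM (SD, n = 3) in ON, 79.1 ± 1.58 in OFF24, then 108 ± 16.9 in OFF48. Its log2 change was -1.19 ± 0.12 at 24 h (edgeR adjusted p = 4.65e-07), beside -0.36 for Snhg1, and -0.76 ± 0.12 at 48 h (edgeR adjusted p = 3.35e-05), beside -1.07. The count of Snhg1 per count of Slc3a2 was 0.815, 0.608 and 0.845 in ON, 1.24, 1.33 and 1.39 in OFF24, then 0.690, 0.471 and 0.638 in OFF48. OFF24 lay above both other groups without overlap (exact two-sided permutation p = 0.1 each), and OFF48 overlapped ON (p = 0.3, exact).

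Rcc1, which encodes the nucleotide exchange factor of Ran, overlaps Snhg3 on the same strand over 5592 bases (chr4:132331919-132353605) but ends further downstream. It measured 255 ± 15.3 CPM (SD, n = 3) in ON, 108 ± 4.73 in OFF24, then 106 ± 29.3 in OFF48, with log2 changes of -1.24 ± 0.14 (edgeR adjusted p = 2.58e-06) and -1.27 ± 0.14 (edgeR adjusted p = 9.83e-07). Snhg3 per Rcc1 was 0.368, 0.260 and 0.338 in ON, 0.751, 0.641 and 0.770 in OFF24, then 0.359, 0.302 and 0.668 in OFF48. OFF24 lay above ON without overlap (exact two-sided permutation p = 0.1), while OFF48 spread over both (exact p = 0.5 against ON and 0.2 against OFF24). The last 400 bases of Snhg3 match transcripts annotated to Rcc1 and, on the other strand, to Gm17300, so reads there could be assigned to more than 1 of them.

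On the opposite strand, Zbtb37 overlaps the first 428 bases of Gas5 (chr1:161002922-161034849) and Mcmdc2, a meiotic MCM-domain gene, overlaps the last 127 bases of Snhg6 (chr1:9908638-9942085). Mcmdc2 measured 1.299 ± 0.985 CPM (SD, n = 3) in ON, 5.14 ± 2.22 in OFF24, then 5.64 ± 0.326 in OFF48, and it rose at both times (log2 change 1.91 ± 0.50, edgeR adjusted p = 0.00589, and 2.07 ± 0.50, adjusted p = 0.00216). These levels rest on few counts: 1, 9 and 4 in ON, 18, 10 and 16 in OFF24, then 16, 8 and 19 in OFF48. At 48 h, where Snhg6 was at its lowest, Mcmdc2 was still above its ON level. The strand setting of the counting is not given in the sources used here, so reads of Snhg6 and Mcmdc2 from the overlap cannot be told apart. Zbtb37 measured 5.32 ± 1.36 CPM in ON, 10.3 ± 2.93 in OFF24, then 5.995 ± 1.296 in OFF48. Its rise of 0.90 ± 0.29 at 24 h (edgeR adjusted p = 0.0200) was lost without ON replicate 2 (adjusted p = 0.0833), ON replicate 3 (0.0560), OFF24 replicate 1 (0.105) or OFF24 replicate 2 (0.0729), and under DESeq2 (0.0583).

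**Figure D3:**
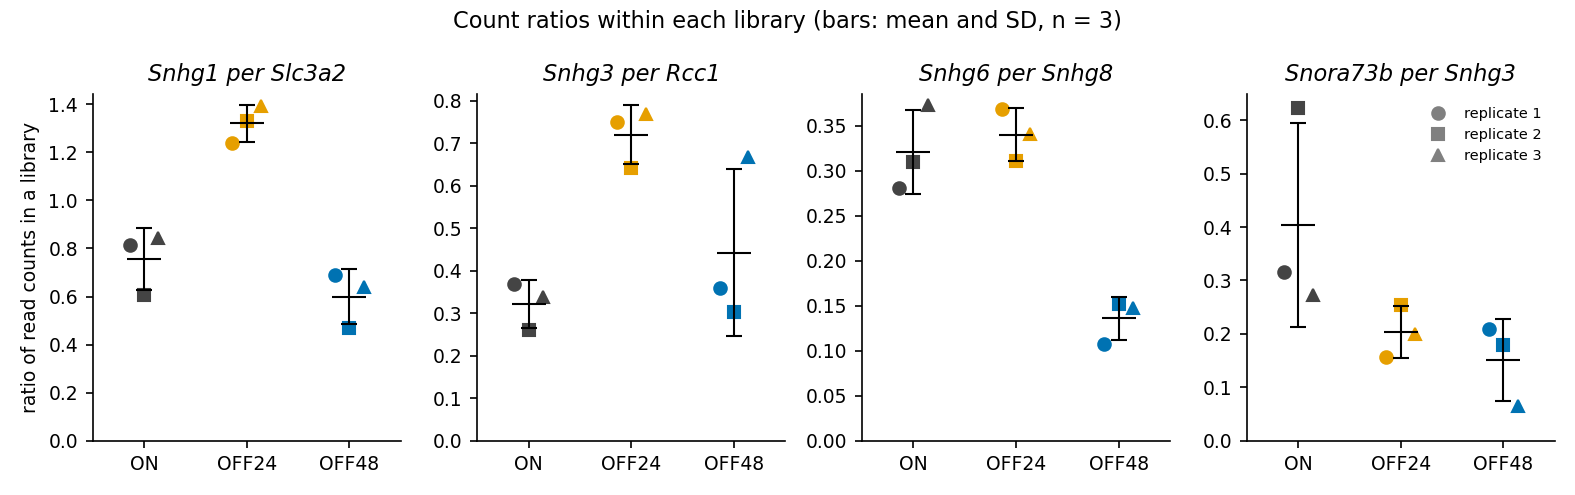
Ratios of read counts of 2 rows within a library (y axes, linear from 0) for each group (x axis); each marker is 1 library and the bars are the mean and SD of 3. Snhg1 per Slc3a2 and Snhg3 per Rcc1 are higher in all OFF24 than in all ON libraries, Snhg6 per Snhg8 is lower in OFF48 than elsewhere, and Snora73b per Snhg3 is lower in both OFF groups than in ON. Snora73b also lies inside Rcc1, which its ratio leaves out.

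The promoter of Snhg15 is shown because this gene had the lowest log2 change of the 8. It is chr11:6528711-6529010 on the minus strand (RefSeq, GRCm38.p6), from 250 bases before to 50 bases after the annotated start. Capitals mark TGACGTCA, a cyclic AMP response element, and CACGTG, an E-box of the kind that MYC and other basic helix-loop-helix factors bind.
Snhg15: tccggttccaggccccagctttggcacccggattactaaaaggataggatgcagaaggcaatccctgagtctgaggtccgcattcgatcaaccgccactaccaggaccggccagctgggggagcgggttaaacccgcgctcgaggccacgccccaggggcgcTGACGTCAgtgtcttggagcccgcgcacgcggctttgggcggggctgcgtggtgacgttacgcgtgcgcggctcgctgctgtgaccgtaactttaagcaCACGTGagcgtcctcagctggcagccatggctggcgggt
The first base of TGACGTCA lies at -88 and that of CACGTG at 12, counting the annotated start as 1. CACGTG occurred in 7.15% of all 32851 promoters of this length and in 1 of the 8 of the members. TGACGTCA occurred in 1.79% and in 2 of 8 (Gas5 and Snhg15). The ETS-type motif CCGGAAG occurred in 8.86% and, among the members, in Snhg3. The STAT-type motif TTCNNNGAA occurred in 8.30% and TGATGNAA, read by ATF4 with CEBP factors, in 3.97%, and these letters were in no member's window. Both strands were searched, and the motifs were chosen after parts of the sequences had been seen. Myc measured 22.7 ± 3.66 CPM (SD, n = 3) in ON, 8.57 ± 1.00 in OFF24, then 6.81 ± 2.41 in OFF48, with log2 changes of -1.41 ± 0.22 (edgeR adjusted p = 7.8e-05) and -1.79 ± 0.24 (edgeR adjusted p = 6.79e-06). Its part in the levels of Snhg15 or the other members was not tested.

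Some reads were counted on the snoRNAs inside the members. Of the 28 loci, 8 have a row of their own symbol: Snord47 (in Gas5), Snord22 (Snhg1), Snora16a and Snora44 (Snhg12), Snora73a and Snora73b (Snhg3), Snord87 (Snhg6) and Snora24 (Snhg8). These loci hold 30 annotated entries, and 27 of them lie inside an exon of at least 1 annotated transcript of the member. Reads there could be counted for the snoRNA or the host, or dropped. Snora73a, Snora73b and Snord87 are the entries outside such exons. The sequences of the pair in Snhg3 and of Snord87, on which most of the snoRNA results turn, are shown 5′ to 3′ from their GRCm38 loci in the annotation, with box ACA of an H/ACA snoRNA, or boxes C and D of a C/D snoRNA, in capitals.
Snora73b: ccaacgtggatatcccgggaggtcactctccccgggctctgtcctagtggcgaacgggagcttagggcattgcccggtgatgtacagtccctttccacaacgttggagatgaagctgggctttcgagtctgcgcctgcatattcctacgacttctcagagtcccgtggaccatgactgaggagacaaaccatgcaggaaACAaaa
Snora73a: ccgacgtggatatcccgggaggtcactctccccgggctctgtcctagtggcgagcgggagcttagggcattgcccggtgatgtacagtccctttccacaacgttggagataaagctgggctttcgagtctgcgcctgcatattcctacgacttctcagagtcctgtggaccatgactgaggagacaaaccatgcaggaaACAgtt
Snord87: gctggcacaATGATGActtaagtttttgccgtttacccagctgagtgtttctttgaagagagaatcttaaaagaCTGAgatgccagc
Snord50a: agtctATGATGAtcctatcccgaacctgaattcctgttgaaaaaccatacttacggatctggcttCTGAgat
Snord50b: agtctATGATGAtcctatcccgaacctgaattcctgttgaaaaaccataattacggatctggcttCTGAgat
Snora73a and Snora73b differ at 7 of 205 positions counted from the 5′ end (from a to b: G3A, G54A, A111G, T164C, G203A, T204A and T205A), so reads of one can be counted for the other. The pair in Snhg5, Snord50a and Snord50b, has no values here and is shown beside them because it differs at 1 of 72 positions (C50A from a to b).

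The 8 snoRNA rows together measured 51.8, 59.9 and 38.3 CPM in ON, 23.8, 24.5 and 26.2 CPM in OFF24, then 13.4, 9.75 and 6.71 CPM in OFF48. The groups did not overlap, and ON and OFF24 were apart, whereas the hosts' summed levels overlapped between them. These sums are not matched gene by gene. Gas5 held 51.5% of the hosts' counts in ON, Snora73b was the largest part of the snoRNA sum, and Snhg5 and Snhg15 have no snoRNA row. Without Snora73b the sums were 22.2, 21.1 and 13.2 CPM, then 10.9, 7.85 and 9.23 CPM, then 3.02, 4.50 and 3.21 CPM. A poly(A)-primed library is not made to read mature snoRNAs, and whether these reads come from mature snoRNAs, from unspliced or cut precursors or from priming at internal A runs was not tested.

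**Figure D4:**
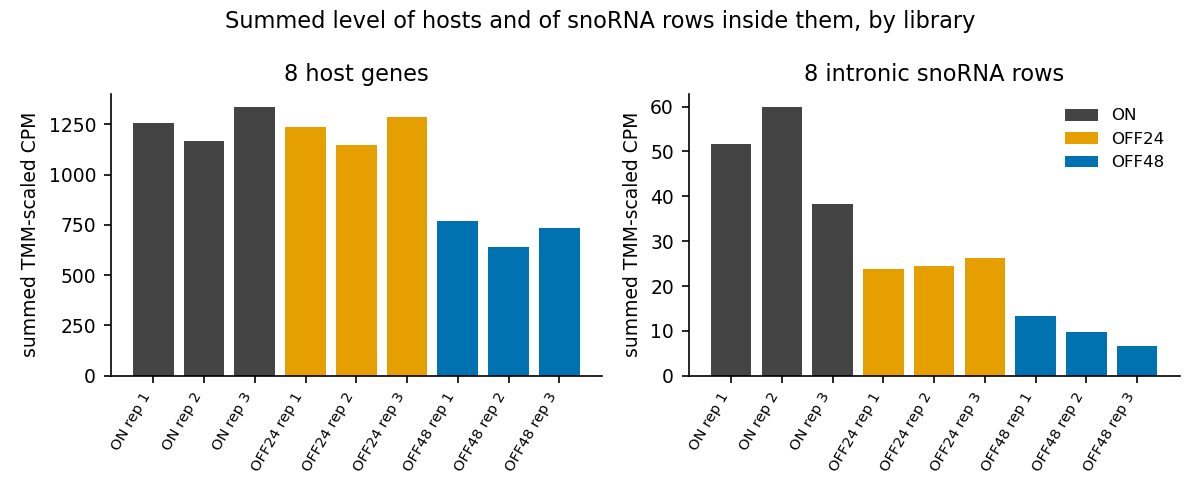
Summed TMM-scaled CPM (y axes, linear from 0) of the 8 host genes (left) and of the 8 snoRNA rows inside them (right), with 1 bar for each of the 9 libraries. The hosts' sums are similar in ON and OFF24 and lower in OFF48, while the snoRNA rows' sums are lower in OFF24 than in ON and lowest in OFF48. The panels are not matched gene by gene.

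Snora73b, a snoRNA known to take part in processing of the ribosomal RNA precursor, was the one with most counts. It had 116, 158 and 70 counts in ON, 31, 53 and 57 in OFF24, then 31, 7 and 12 in OFF48. Its log2 change was -1.002 ± 0.23 at 24 h (edgeR adjusted p = 0.00271) and -2.28 ± 0.28 at 48 h (edgeR adjusted p = 3.36e-06). Those of Snhg3 were -0.08 and -0.82. Snora73a and Snora73b also lie inside the span of Rcc1 on the same strand, and Rcc1 changed by -1.24 ± 0.14 and -1.27 ± 0.14. From which of these genes the snoRNA reads came was not tested. The call at 24 h was lost with limma on the deposited log2 table (adjusted p = 0.0786). Snora73b per Snhg3 was 0.315, 0.622 and 0.273 in ON, 0.156, 0.254 and 0.200 in OFF24, then 0.209, 0.179 and 0.0642 in OFF48, so that both OFF groups lay below ON (exact two-sided permutation p = 0.1 each). That ratio takes Snhg3 alone as the host. Rcc1 had 1000, 978 and 757 counts in ON, 265, 326 and 370 in OFF24, then 412, 129 and 280 in OFF48, and a ratio of Snora73b to Rcc1 was not taken. Snora73a had 18, 13 and 11 counts in ON, 5, 1 and 7 in OFF24 and 1, 0 and 1 in OFF48, and fell at 48 h (edgeR adjusted p = 0.000408). Its call at 24 h (edgeR adjusted p = 0.0355) was lost without ON replicate 1 (adjusted p = 0.124), ON replicate 3 (0.0714) or OFF24 replicate 2 (0.187), and under DESeq2 (0.124).

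Snora44 fell by 2.19 ± 0.66 on the log2 scale at 48 h (edgeR adjusted p = 0.0101), a call that was lost without OFF48 replicate 1 (adjusted p = 0.0654) or OFF48 replicate 3 (0.0526). Snord87, inside Snhg6, had too few counts to be tested. It had 14, 13 and 8 counts in ON, 2, 5 and 2 in OFF24, then 1, 2 and 3 in OFF48, so it was lower in all OFF24 than in all ON libraries where Snhg6 itself was higher on average. Snora24, inside Snhg8, had 10, 11 and 4 counts in ON, 2, 4 and 5 in OFF24, then 0, 0 and 1 in OFF48. Snord47, Snord22 and Snora16a had between 0 and 20 counts in each library. Over all 87 rows of the table with a snoRNA symbol, 15 were tested. At 24 h 4 of the 15 fell and 2 rose, beside 17.4% of all tested genes that fell and 17.8% that rose. At 48 h 8 fell and 1 rose, beside 23.9% of all tested genes that fell and 23.4% that rose.

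The genes of the proteins that bind snoRNAs were lower at both times. All 8 core snoRNP genes examined (Fbl, Nop56, Nop58 and Snu13 for C/D box particles, Dkc1, Gar1, Nhp2 and Nop10 for H/ACA box particles) fell at both times, beside 17.4% of all tested genes that fell at 24 h and 23.9% at 48 h. Their median log2 change was -1.22 at 24 h and -1.39 at 48 h. Nop56, a core C/D box protein whose gene is also a snoRNA host, went from 195 ± 18.4 CPM (SD, n = 3) to 61.0 ± 4.23 and 43.8 ± 2.06. Dkc1, the pseudouridine synthase, went from 195.6 ± 18.5 CPM to 61.3 ± 6.05 and 56.8 ± 14.5. Gar1 changed by -1.25 ± 0.14 and -1.75 ± 0.15, and Nop58 by -1.36 ± 0.12 and -1.42 ± 0.12, on the log2 scale (edgeR adjusted p at most 1.24e-06 in all 4 cases).

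Of 12 snoRNP assembly factors, 7 fell at 24 h (17.4% of all tested genes did) and 9 at 48 h (23.9%), with medians of -0.84 and -0.99. Nolc1, a chaperone of snoRNPs in the nucleolus and Cajal body, changed by -1.64 ± 0.15 and -1.59 ± 0.15. Ruvbl1, an ATPase of the R2TP complex, changed by -0.98 ± 0.15 and -1.28 ± 0.16. Pih1d1, another R2TP subunit, was the one that rose at 48 h (0.70 ± 0.20, edgeR adjusted p = 0.00715); no assembly factor rose at 24 h.

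Of 14 other non-coding snoRNA hosts listed, 9 have a row and 6 were tested; 5 of the 6 fell at 48 h and Snhg20 rose (median -0.64), where 23.9% of all tested genes fell. Of the 22 non-coding hosts in the annotation with a row, members left out, 12 were tested. At 24 h 3 rose and 4 fell (median -0.24), where 17.8% of all tested genes rose and 17.4% fell. At 48 h 7 fell and none rose (median -0.66), where 23.9% of all tested genes fell and 23.4% rose. This wider group shares Snhg9, Dancr and Epb41l4aos with the list, and of its calls at 24 h the rises were 9330159M07Rik, AA465934 and Rab26os and the falls 2700038G22Rik, AI506816, Dancr and Snhg9. Leaving out single libraries ended the calls of 9330159M07Rik (adjusted p = 0.0833 without OFF24 replicate 2 and 0.0521 without replicate 3), AA465934 (0.0529 without ON replicate 2 and 0.0804 without OFF24 replicate 2) and 2700038G22Rik (0.119 without ON replicate 1, and 0.115 and 0.157 without OFF24 replicates 1 and 3). The Rab26os call was lost without any 1 library except OFF48 replicate 2 (0.0535 to 0.191). Under DESeq2 the 24 h calls of 9330159M07Rik (adjusted p = 0.0673), 2700038G22Rik (0.0850) and Rab26os (0.162) were lost too. Snhg9 changed by -0.57 ± 0.15 at 24 h and -1.01 ± 0.16 at 48 h, and Dancr by -1.08 ± 0.30 and -1.38 ± 0.33, all called in the count fit. With limma on the deposited log2 table Snhg9 at 24 h (adjusted p = 0.0824) and Dancr at 24 h (0.0824) and 48 h (0.0530) were not called. Epb41l4aos (-0.61 ± 0.12), Snhg11 (-0.55 ± 0.14) and Snhg4 (-0.68 ± 0.19) fell at 48 h and were not called at 24 h. Snhg20 rose by 0.41 ± 0.12 at 24 h (edgeR adjusted p = 0.0102), which was lost without ON replicate 1 (adjusted p = 0.0515) or OFF24 replicate 2 (0.109). Its call at 48 h (0.30 ± 0.12, edgeR adjusted p = 0.0436) was lost without ON replicate 1 (0.116), 2 (0.0649) or 3 (0.0841), OFF24 replicate 1 (0.0548), or OFF48 replicate 1 (0.117) or 2 (0.0770), and under DESeq2 (0.0876).

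Of 49 protein-coding hosts listed, 47 were tested; 14 fell at 24 h (17.4% of all tested genes did) and 30 at 48 h (23.9% of all tested genes), with medians of -0.02 and -0.39. Hsp90ab1, a cytosolic chaperone, changed by -1.68 ± 0.10 at 48 h and Ncl, the nucleolar protein nucleolin, by -0.78 ± 0.10 and -1.56 ± 0.11. At 24 h 4 of the 47 rose, where 17.8% of all tested genes did. They were Eif4a2 (0.54 ± 0.10), Rpl10 (0.37 ± 0.09), Eef2 (0.35 ± 0.09) and Rps12 (0.35 ± 0.11). Of these calls, that of Eef2 was lost without OFF24 replicate 2 (adjusted p = 0.0711) and that of Rps12 without ON replicate 2 (0.109), OFF24 replicate 1 (0.115) or OFF24 replicate 3 (0.0552). At 48 h Rpl10 was at 0.27 ± 0.09 and rose, a call lost without ON replicate 2 (adjusted p = 0.0535) or OFF48 replicate 3 (0.0605). Over all annotated protein-coding hosts of the genome annotation with a row, 188 of 242 were tested, and 57 of them fell and 20 rose at 24 h, and 85 fell and 27 rose at 48 h, with medians of -0.06 and -0.25. Over all tested genes 17.4% fell and 17.8% rose at 24 h, and 23.9% fell and 23.4% rose at 48 h.

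Among 15 genes of nonsense-mediated decay and the exon junction complex, which act on host RNAs once these are translated, 7 fell and none rose at 24 h, where 17.4% of all tested genes fell and 17.8% rose, with a median log2 change of -0.31. At 48 h 4 fell (Magohb, Eif4a3, Rbm8a and Upf1) and 2 rose (Upf3a and Upf2), with a median of -0.06; 4 of 15 falling is near the 23.9% of all tested genes, and 2 of 15 rising is below the 23.4%. Magohb, a junction complex subunit, changed by -0.87 ± 0.16 at both times. Upf1, the helicase of the pathway, changed by -0.47 ± 0.13 at 24 h and -0.35 ± 0.14 at 48 h, the latter lost without ON replicate 2 (adjusted p = 0.128) or 3 (0.0649), OFF24 replicate 3 (0.0524), or OFF48 replicate 1 (0.0927) or 3 (0.142). The Upf1 call at 48 h was also lost under DESeq2 (adjusted p = 0.109). Eif4a3 (-0.29 ± 0.09 at 48 h) lost its call without OFF48 replicate 2 (0.0508), and Rbm8a (-0.37 ± 0.11) without OFF48 replicate 1 (0.0688) or 3 (0.0506). Upf3a rose by 0.54 ± 0.16 at 48 h (edgeR adjusted p = 0.00796). Upf2 (0.53 ± 0.19) lost its call without ON replicate 1 (0.0657) or 2 (0.117) or OFF48 replicate 1 (0.254), and under DESeq2 (0.0537).

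The 16 TOP mRNAs examined, which encode translation factors and related proteins, had a median log2 change of -0.02 at 24 h, where 4 rose and 1 fell (17.8% and 17.4% of all tested genes), and of -0.48 at 48 h, where 12 fell and 1 rose (23.9% and 23.4%). Eef1g, a subunit of elongation factor 1, was the one that fell at 24 h (-0.87 ± 0.11), and it stood at -2.16 ± 0.12 at 48 h. Npm1, a nucleolar ribosome assembly protein, was at -0.06 ± 0.10 (edgeR adjusted p = 0.637) and then -1.57 ± 0.10. Fau (0.40 ± 0.09), Eef2 (0.35 ± 0.09), Eef1a1 (0.28 ± 0.09) and Tpt1 (0.22 ± 0.08) rose at 24 h. Without ON replicate 2, 3, OFF24 replicate 1 or 3 the Eef1a1 call was lost (adjusted p = 0.0758, 0.0583, 0.0730 and 0.0746), and the Tpt1 call was lost in each fit without 1 library (0.0507 to 0.165). DESeq2 did not call Tpt1 at 24 h either (adjusted p = 0.0526). Tpt1 was the one that rose at 48 h (0.36 ± 0.08, edgeR adjusted p = 0.00147). Larp1 and the 4E-BPs are known to hold back TOP mRNAs. Of 6 genes of the LARP, 4E-BP and eIF4E group, 4 fell at both times (Larp1, Larp4, Eif4e and Eif4ebp1). Over all tested genes 17.4% fell at 24 h and 23.9% at 48 h. Larp1, the repressor of TOP mRNA translation, changed by -1.07 ± 0.13 and -1.12 ± 0.14, and Eif4e, the cap-binding protein, by -0.64 ± 0.11 and -1.29 ± 0.12. Larp4b rose at 48 h (0.30 ± 0.10, edgeR adjusted p = 0.0158), where 23.4% of all tested genes rose. That call was lost without ON replicate 3 (0.0520) or OFF48 replicate 3 (0.0645).

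**Figure D5:**
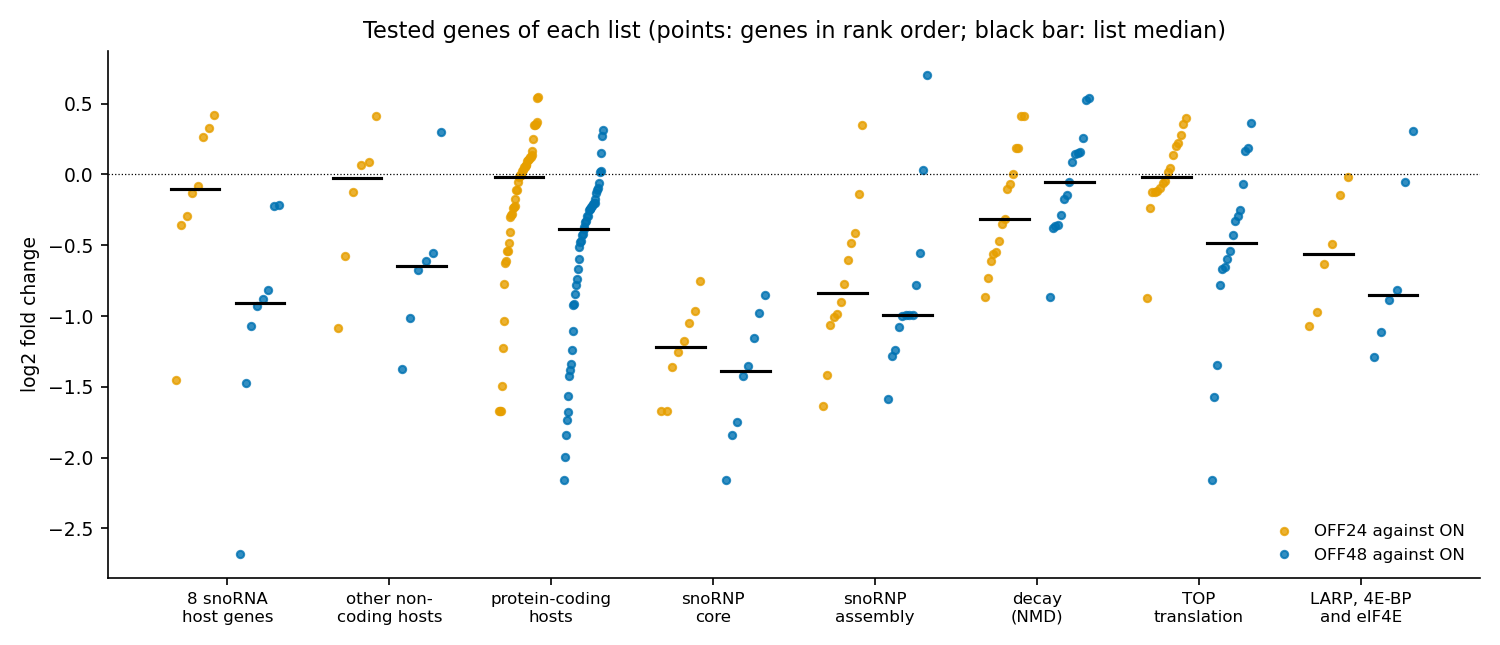
Log2 fold change against ON (y axis) of every tested gene in each list (x axis), at 24 h and 48 h; each point is 1 gene in rank order and the black bar is the list's median. The core snoRNP genes all lie below 0 at both times (medians -1.22 and -1.39), while the 8 host genes and the TOP translation genes centre near 0 at 24 h (-0.10 and -0.02) and below 0 at 48 h (-0.91 and -0.48).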

How the data were processed

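RNA from 9 libraries of the mouse leukaemia line was sequenced with the Lexogen QuantSeq 3′ kit, per the labels' protocols. Per the submitters' processing notes the tools included HISAT2 2.0.4, featureCounts (Subread 1.5.0-p3), cutadapt 1.5 and limma 3.42.2, with build mm10. Strand setting, annotation and handling of multimapped reads were not stated. The deposited table holds raw read counts per symbol. A second deposited table of log2 values, normalised by the authors with voom and limma per its name, served as an alternative. Counts were filtered (filterByExpr), TMM-scaled and tested with edgeR 4.0.16 (R 4.3.3), with a robust quasi-likelihood fit of 3 group means to all 9 libraries (6 residual degrees of freedom) and Benjamini-Hochberg adjustment over 10215 genes at 0.05. Level means are TMM-scaled CPM with the SD. The fit was tested on simulated data. The common biological coefficient of variation was 0.105. All pairs of replicates exceeded counting noise (chi-square over its degrees of freedom 1.99 to 6.99) and were counted separately. Alternatives were DESeq2 1.42.0, limma 3.58.1, other scalings and filters, a replicate block and leaving out each library. Same-numbered libraries deviated together in all 3 pairs of ON with OFF48 (r = 0.115 to 0.406) but not in every pair of the other comparisons (r = -0.01 to 0.20), and a library was most like its own number, among 3, in 11 of 18 comparisons with another group; the labels give no reason for a pairing. Matching ends were found with blastn 2.17.0. Genes named are the 8 members, their 2 most correlated genes, annotated neighbours, Myc, and for each list genes among the 4 with the smallest p at 48 h. Other list genes (such as Snhg20, Upf1 or Larp4b) are named because a count was 5 or fewer, after their values were seen. Members and lists were chosen with earlier results of these data known. Some list genes are not reported here.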

Additional observations from a re-analysis of the deposited data

Results flagged for a closer look

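For each of the 8 host genes the change at 48 h differed from the change at 24 h, both taken against the same ON libraries, by the test of OFF48 against OFF24. The difference on the log2 scale was -0.80 for Gas5, -0.71 for Snhg1, -0.74 for Snhg3, -0.48 for Snhg5, -1.89 for Snhg6, -0.55 for Snhg8, -0.59 for Snhg12 and -1.23 for Snhg15. The calls of Snhg3, Snhg5 and Snhg12 depended on single libraries, as given with their values above.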

How the results depend on the processing

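The 6 falls at 48 h against ON were 6 or 7 under every alternative run. At 24 h the 2 falls became 1 with limma on the deposited log2 table and ran from 1 to 2 when 1 library was left out, and the 2 rises became 0 with DESeq2 and 0 with the deposited log2 table, and ran from 0 to 2. The 8 falls from 24 to 48 h became 5 with the deposited log2 table and ran from 5 to 8. With the replicate as a block 2 fell and 2 rose at 24 h, 7 fell at 48 h and 8 fell between the times, Snhg8 being the one added at 48 h (-0.23, edgeR adjusted p = 0.0411); the block changed no other call of a member. The Snhg3 value at 24 h ran from -0.28 to 0.0153 with 1 library left out, turning positive without ON replicate 1 (0.01) and OFF24 replicate 2 (0.0153), and was called in none of these fits. With the deposited log2 table, the calls of Snhg1, Snhg6 (adjusted p = 0.0972) and Snhg8 (0.115) at 24 h and of Snhg3 (0.0549), Snhg5 (0.0733) and Snhg12 (0.0693) between the times were lost; the cause was not tested. Over all genes that table gave 1395 rises and 1399 falls at 24 h against 1822 and 1781 in the main fit. Depth limits Snhg15, at 8 to 19 counts in OFF48, and the snoRNA rows, at 0 to 31.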
